A study of Mus musculus with 32 samples.

Results

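The mitochondrial light-strand genes are the 9 genes that the mouse annotation places on the minus strand of the mitochondrial chromosome: the coding gene mt-Nd6 and the tRNA genes mt-Tq, mt-Ta, mt-Tn, mt-Tc, mt-Ty, mt-Ts1, mt-Te and mt-Tp. They were chosen by symbol, and 9 of the 9 had a row in the deposited liver RNA-seq table, which holds 21880 rows. The study followed liver injury and tumour formation in mice whose hepatocytes lack proteins of mitochondrial fission or fusion. Its 32 liver libraries fall into 8 groups of 4, one for each of 4 genotypes at 2 and 6 months of age (2M and 6M). The WT groups carry the label Drp1_WT, and the L-*Dnm1l*–KO groups (label Drp1_KO) lack Dnm1l, which encodes the fission protein DRP1. The DKO groups lack Mfn1 and Mfn2, which encode the fusion proteins mitofusin 1 and 2, and the TKO groups lack Dnm1l, Mfn1 and Mfn2. Per the methods, floxed mice were crossed with albumin-Cre mice, so the deletions are driven in hepatocytes while the RNA came from whole liver, in which other cell types keep the genes.

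The values used here are 1 mean normalized count per gene, taken by the authors over all libraries. With these values genotypes and ages could not be compared and no replicate spread could be given. The authors' deposited comparisons between groups were not used, and no difference below was tested. The order of the genes is a description, and which neighbours in it differ beyond the spread between livers was not tested. In bulk liver, fewer cells of a type and less RNA per cell cannot be told apart. The depth of the single libraries is unknown from these values.

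In mammals both strands of the circular mitochondrial genome are transcribed into long precursors. Most genes are read from the heavy-strand promoters, whereas the light-strand precursor yields ND6, a membrane subunit of respiratory complex I, and a scattered set of tRNAs. The tRNAs act as punctuation: RNase P and ELAC2 cut at their ends and so release the RNAs between them, and the rest of the light-strand precursor is degraded. The ND6 mRNA is known for lacking the poly(A) tail that other mitochondrial mRNAs carry, while the ND5 mRNA is known to run on past its stop codon, antisense to ND6. The libraries were made from RNA purified by poly(A) tail, with a strand-specific kit. The setting with which strands were counted is not given in the sources used here.

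That setting decides which RNA a light-strand row holds, and the table gave values that bear on it. Of the 21826 rows found in the annotation, 22.0% have an exon opposite an exon of a coding gene, and among the 1011 of these with a mean of at least 100 the share was 83.4%. The 10 highest rows all have such an exon. Since they were picked as the highest, which favours a row over its partner, the sizes that follow are a description. In the 9 rows with a single gene opposite, 9 of 9 stood above that gene by mean. The ratios ran from 4.61 to 917 with a median of 83.1, and that of mt-Nd6 to mt-Nd5 was the lowest. The highest row of the table, Ccdc152, stood at 40709, and Selenop on the other strand, which encodes an abundant selenium carrier made in liver, stood at 391. The second row was mt-Nd6 at 30507, whose end lies opposite mt-Nd5 at 6624. Hepatocyte markers were present, with 6 of 6 (Alb, Apoa1, Ttr, Serpina1a, Cps1 and Tat) at 100 to 4958. All 6 lack an exon opposite a coding gene, so they do not bear on the strand counted. Whether the light-strand rows carry reads of heavy-strand transcripts was not tested, and the source strand of the reads cannot be told apart from a mean per gene. All levels below are therefore levels of a row.

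The sequences of the 8 tRNA genes are shown because they carry the identity of each gene and because their small size bears on which reads can be assigned to them. They are given 5′ to 3′ on the light strand, from the GENCODE transcripts of GRCm38, with the anticodon in capitals.
mt-Tq: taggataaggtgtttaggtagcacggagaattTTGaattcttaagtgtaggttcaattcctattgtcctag
mt-Ta: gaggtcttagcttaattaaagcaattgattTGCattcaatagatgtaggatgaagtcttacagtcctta
mt-Tn: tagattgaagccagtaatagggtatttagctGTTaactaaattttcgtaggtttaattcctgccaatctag
mt-Tc: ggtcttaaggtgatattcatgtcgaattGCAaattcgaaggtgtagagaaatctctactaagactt
mt-Ty: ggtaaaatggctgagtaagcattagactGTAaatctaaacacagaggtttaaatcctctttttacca
mt-Ts1: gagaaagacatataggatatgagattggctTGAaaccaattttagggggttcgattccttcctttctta
mt-Te: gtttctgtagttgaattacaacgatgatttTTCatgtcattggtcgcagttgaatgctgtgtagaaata
mt-Tp: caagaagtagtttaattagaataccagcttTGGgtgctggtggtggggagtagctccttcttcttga
Each anticodon was found as the single match to the codon family of the amino acid within positions 25 to 40 of the gene, after a T and before a purine. The genes serve glutamine (mt-Tq), alanine (mt-Ta), asparagine (mt-Tn), cysteine (mt-Tc), tyrosine (mt-Ty), the UCN codons of serine (mt-Ts1), glutamate (mt-Te) and proline (mt-Tp). Their lengths were 66 to 71 bases, so that 8 of 8 were shorter than the 75-base reads. A read that covers one of them whole must therefore reach into the flanking sequence.

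The end of the mt-Nd6 gene is shown because it is the stretch where the light-strand coding gene meets a heavy-strand one. It spans chrM:13552-13626 on the minus strand, and the capitals mark the 14 bases that lie opposite the end of mt-Nd5.
mt-Nd6 end: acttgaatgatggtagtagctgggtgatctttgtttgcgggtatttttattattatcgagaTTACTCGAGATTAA
The remaining 505 of the 519 bases of mt-Nd6 had no annotated heavy-strand gene opposite them. The composition of mt-Nd6 also set it apart from the coding genes of the other strand. On its own strand it held 5.97% C and 28.1% G, whereas the 12 heavy-strand coding genes held 22.1 to 30.0% C and 5.88 to 16.1% G. Its T content was 43.7%, against 27.4 to 32.8% in those 12 genes. The light-strand tRNA genes held 11.3 to 16.4% C, a range inside the 8.82 to 26.1% of the 14 heavy-strand tRNA genes.

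mt-Nd6 dominated the 9 rows. This gene (ENSMUSG00000064368, chrM:13552-14070, 1 coding exon) had a mean normalized count of 30507, the second highest of the table. It held 3.39% of the summed means of all rows, 66.2% of the sum over the 29 mitochondrial rows and 89.4% of the sum over the 9 light-strand rows. Per kb of gene its level was 58781. The 9 rows together summed to 34135, which was 3.79% of all rows and 74.1% of the mitochondrial sum. Without mt-Nd6 the other 8 held 0.417% of all rows.

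Among the tRNA genes, mt-Te, which reads glutamate codons, had the highest row, with a mean of 1681 (rank 71; ENSMUSG00000064369, chrM:14071-14139). It abuts mt-Nd6 without a base between them, on the side from which light-strand transcription arrives. mt-Tc, for cysteine, followed with a mean of 1017 (rank 111; ENSMUSG00000064349, chrM:5192-5257). Both lay above every heavy-strand tRNA row, of which the highest, mt-Tt, stood at 14.3.

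The next 3 tRNA rows had means between 133 and 386. mt-Tq, for glutamine, stood at 386 (rank 325; ENSMUSG00000064343, chrM:3772-3842). mt-Tp, for proline and the first light-strand gene downstream of the control region, stood at 251 (rank 469; ENSMUSG00000064372, chrM:15356-15422). mt-Ts1, for serine, stood at 133 (rank 824; ENSMUSG00000064352, chrM:6870-6938).

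The 3 lowest rows lie, with mt-Tc among them, in the cluster of tRNA genes between mt-Nd2 and mt-Co1. mt-Ta, for alanine, had a mean of 94.7 (rank 1050; ENSMUSG00000064347, chrM:5018-5086). mt-Ty, for tyrosine, had a mean of 57.7 (rank 1467; ENSMUSG00000064350, chrM:5260-5326). mt-Tn, for asparagine, had a mean of 7.91 (rank 5029; ENSMUSG00000064348, chrM:5089-5159), against a median of 1.52 over all rows. Means thus spanned 213-fold among 8 tRNA genes of nearly equal length.

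**Figure D1:**
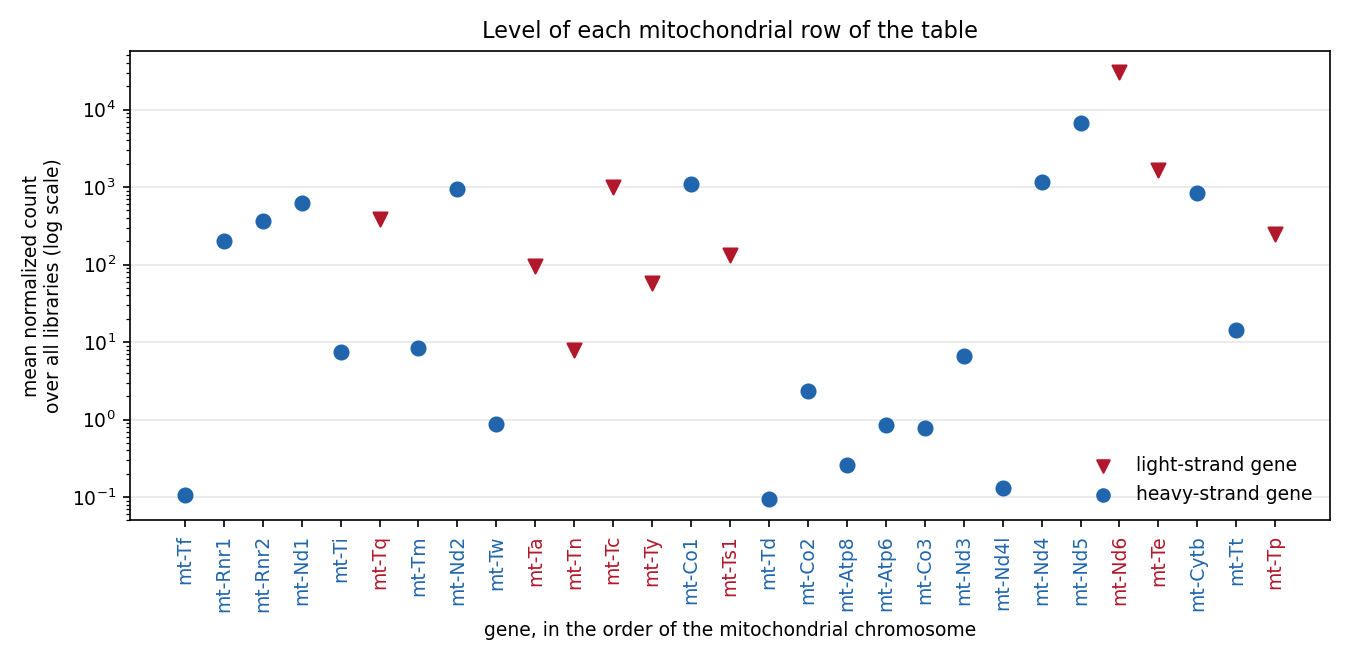
Mean normalized count over all libraries (log axis) of each of the 29 mitochondrial rows, in the order of the chromosome, with light-strand genes as red triangles and heavy-strand genes as blue circles. mt-Nd6 at 30507 was the highest point, and among the light-strand genes mt-Tn at 7.91 was the lowest.

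Position along the chromosome did not order the levels. The 4 genes mt-Ta, mt-Tn, mt-Tc and mt-Ty follow each other on the light strand with 2 bases, 32 bases and 2 bases between them. Per kb of gene, mt-Tc nevertheless stood at 138 times mt-Tn on one side and 17.9 times mt-Ty on the other (153 and 46.8 times per assignable position, as defined next). The 32-base gap at chrM:5160-5191 between mt-Tn and mt-Tc is where light-strand DNA replication starts, a sequence known to fold into a stem and loop.

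These 4 genes also differed in how many reads could be assigned to them. A read that touches 2 genes of one strand cannot be given to either when ambiguous reads are discarded, so the start positions of 75-base reads that touch 1 gene and no other on its strand were counted. mt-Tc had 26 such positions, starting at 5160 to 5185 and so all within the gap beside it, and mt-Tn had 31. mt-Ta and mt-Ty, at the ends of the cluster, had 71 and 69. mt-Te had 69, and the isolated genes mt-Tp, mt-Ts1 and mt-Tq had 141, 143 and 145. mt-Nd6 had 519.

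Counted per 1000 assignable positions, mt-Tc stood at 39126, above mt-Te at 24363, whereas per kb of gene the values were 15413 and 24363. The cysteine gene was therefore the highest or the second of the tRNA genes, depending on the length used. mt-Nd6 remained first under both lengths, at 2.41 times mt-Te, and its ratio to mt-Tc was 3.81 per kb and 1.50 per position. mt-Tn was last under both, at 111 per kb and 255 per 1000 positions. The 5 other tRNA genes kept their places except that mt-Ta (1373 per kb, 1334 per 1000 positions) passed mt-Ts1 (1927 and 929.6). mt-Tq stood at 5432 and 2659.9, mt-Tp at 3741 and 1777, and mt-Ty at 861 and 836. The span between the highest and the lowest tRNA row was 219-fold per kb and 153-fold per position.

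**Figure D2:**
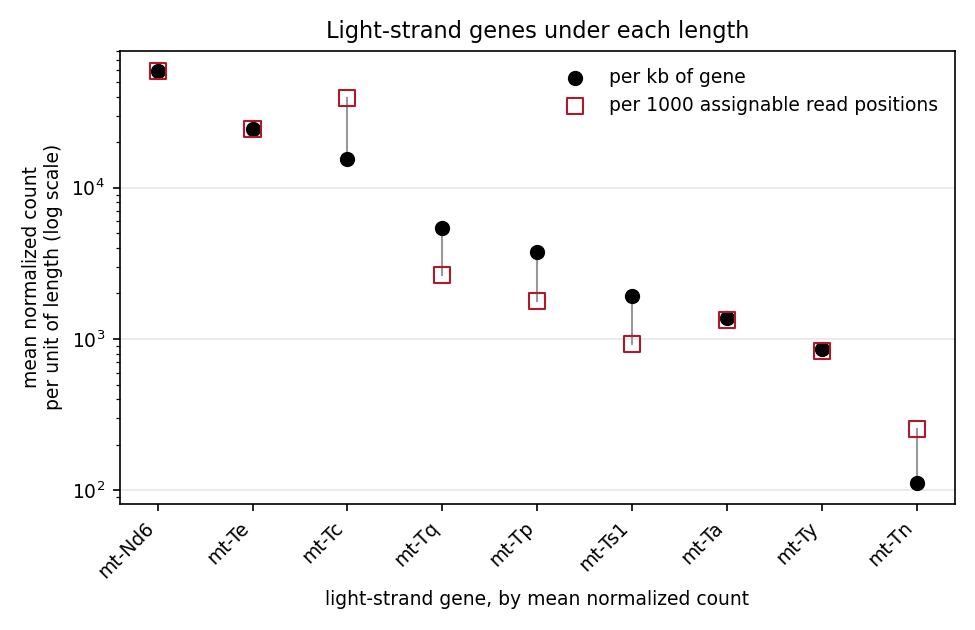
Level of each light-strand row on a log axis, as mean normalized count per kb of gene (filled circles) and per 1000 assignable read positions (open squares), ordered by mean normalized count. The lengths change mt-Tc (15413 and 39126) and mt-Tn (111 and 255) upward and mt-Tq, mt-Tp and mt-Ts1 downward.

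When a read that touches a gene of either strand was treated as ambiguous, 5 of the 9 genes (mt-Tq, mt-Ta, mt-Ty, mt-Ts1 and mt-Te) had 0 positions left. Their means were 57.7 to 1681. mt-Nd6 kept 431 positions, mt-Tp 67, mt-Tn 31 and mt-Tc 26. Every whole 75-base read that touches one of those 5 genes also touches another annotated gene on one strand or the other.

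The light-strand rows were then set beside the nearest gene annotated on the heavy strand, which lies at most 72 bases away. In 9 of 9 such pairs the light-strand row had the higher level per kb. mt-Co1 and mt-Tw each serve in more than 1 pair, so the 9 are not separate comparisons. The mean of mt-Tw was only 0.874. mt-Nd6 stood at 16.2 times mt-Nd5 (58781 against 3631 per kb), another complex I subunit, whose mean of 6624 was the highest on the heavy strand. mt-Nd6 also stood at 80.4 times mt-Cytb, the complex III gene on its other side. mt-Te, which lies 5 bases from mt-Cytb, stood at 33.3 times that gene (24363 against 731 per kb).

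The pairs made of tRNA genes on both sides were also far apart. mt-Tp abuts mt-Tt, for threonine, with 0 bases between them, and stood at 17.5 times its level per kb (3741 against 214) and 8.30 times per assignable position. mt-Tq shares 3 bases with mt-Ti, for isoleucine, and stood at 50.2 times its level per kb (5432 against 108) and 22.5 times per position. On its other side mt-Tq stood at 44.9 times mt-Tm, for methionine, per kb and 20.7 times per position. mt-Ta lies 1 base from mt-Tw, for tryptophan, and stood at 105 times its level per kb (1373 against 13.0). mt-Tn, the next gene, stood at 8.54 times mt-Tw per kb and 19.0 times per position.

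The 3 pairs with mt-Co1, the core subunit of cytochrome c oxidase, were the least alike among themselves. mt-Tc lies 70 bases from it and stood at 21.5 times its level per kb (15413 against 718) and 56.9 times per assignable position. mt-Ty lies 1 base from its start and stood at 1.20 times its level (861 per kb). mt-Ts1 shares 3 bases with its end and stood at 2.68 times its level (1927 per kb), or 1.35 times per assignable position. Of the 50-base windows of mt-Co1, 51.1% also occur in nuclear transcripts, and the part of this in the 3 ratios was not tested.

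**Figure D3:**
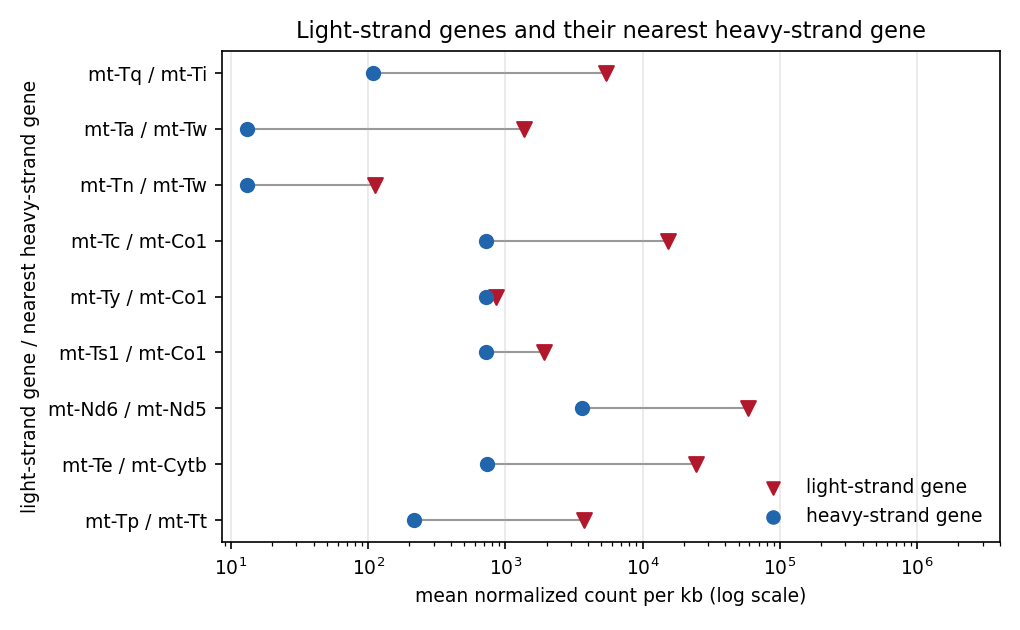
Level per kb of gene (log axis) of each light-strand gene (red triangle) and of its nearest heavy-strand gene (blue circle), joined by a line for each pair. The triangle lies to the right in 9 of 9 pairs, with the shortest line for mt-Ty and mt-Co1 (1.20 times) and the longest for mt-Ta and mt-Tw (105 times).

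Against the heavy strand as a whole, the light-strand rows were higher per kb, with a wide overlap. The 20 heavy-strand rows ran from 0.437 to 3631 per kb with a median of 115, and the 9 light-strand rows from 111 to 58781 with a median of 3741, a ratio of medians of 32.7. Per assignable position that ratio was 13.8. Per kb, mt-Nd6, mt-Te, mt-Tc, mt-Tq and mt-Tp exceeded 20 of the 20 heavy-strand rows, although mt-Tp stood at only 1.03 times mt-Nd5. mt-Ts1 and mt-Ta exceeded 19, mt-Ty 18 and mt-Tn 10. Per assignable position, mt-Nd6, mt-Te and mt-Tc exceeded 19 of the 19 heavy-strand rows with such positions, while mt-Tq and mt-Tp, like mt-Ta, exceeded 18 and lay below mt-Nd5. For tRNA genes alone, the 8 light-strand rows had means of 7.91 to 1681, and the 6 heavy-strand rows had means of 0.0941 to 14.3. Of the 8, mt-Tn alone lay within the heavy-strand tRNA range by mean, whereas per 1000 assignable positions it stood at 255, above the highest heavy-strand tRNA row, mt-Tt, at 214.

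All 8 light-strand tRNA genes had a row, against 6 of 14 on the heavy strand. The 8 heavy-strand tRNA genes without a row used here had 0 or 1 assignable read positions (0 in 7 of 8), since they sit tightly between other genes of their strand. The light-strand genes had 26 to 519 positions. mt-Tf, for phenylalanine, also had 0 positions and yet had a row, at a mean of 0.107. The part of the assignable positions in the difference between strands was not tested.

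Nuclear copies of mitochondrial DNA also bear on which reads can be counted. A read that fits both places cannot be assigned to one. None of the 9 light-strand genes shared a 50-base window with an annotated nuclear transcript (0 of 9), whereas 10 of the 20 heavy-strand rows did. The heavy-strand tRNA genes shared none either (0 of 14), and the 10 rows that did were coding genes and mt-Rnr2. On chromosome 2, the pseudogenes Gm13339 and Gm13340 share windows with chrM:4442-4903 and chrM:5328-6784. mt-Tw, mt-Ta, mt-Tn, mt-Tc and mt-Ty lie between these matches, where no annotated transcript shared a window. Whether that copy runs through them was not compared. The heavy-strand coding genes mt-Nd1, mt-Cytb and mt-Atp8 had 0% shared as well, like mt-Nd6, and mt-Nd1 and mt-Cytb stood at 658 and 731 per kb. The shared part was 98.0 to 100% of the windows in mt-Co2, mt-Co3, mt-Atp6, mt-Nd4l and mt-Nd3, 62.2% in mt-Nd4, 51.1% in mt-Co1, and 1.04 to 8.19% in mt-Nd2, mt-Nd5 and mt-Rnr2. The copy with most of these windows lies at chr1:24611535-24616197, where 7 pseudogenes, themselves at means of 0.995 to 3.70, match chrM:6394-11042.

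The 7 heavy-strand rows wholly inside that stretch stood at 0.437 to 19.0 per kb. mt-Co1 and mt-Nd4, which reach across its ends, stood at 718 and 847 per kb. The 4 heavy-strand coding genes that do not touch it, mt-Nd1, mt-Nd2, mt-Nd5 and mt-Cytb, stood at 658 to 3631 per kb. Setting aside the heavy-strand rows wholly inside the stretch changed the ratio of the strand medians from 32.7 to 16.4, setting aside rows of either strand wholly inside it gave 20.1, and setting aside every heavy-strand row that touches it gave 17.5. mt-Atp8 (1.26 per kb) and mt-Td (1.34) lie wholly inside the stretch where annotated transcripts cover too little of the copy for a 50-base window, so their nuclear sequence was not compared. mt-Tf (1.57) and mt-Tw (13.0), outside it, were in the same range. However, mt-Tf had 0 assignable positions, and mt-Tw lies between the matches on chromosome 2, where nuclear sequence was not compared. mt-Ts1 is the 1 light-strand gene that lies inside the stretch. Its counterpart there falls between the pseudogenes Gm29216 and Gm28661, where too little is covered for a window, so its nuclear sequence was not compared. Its level of 1927 per kb was above each of the 7 heavy-strand rows of the stretch.

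**Figure D4:**
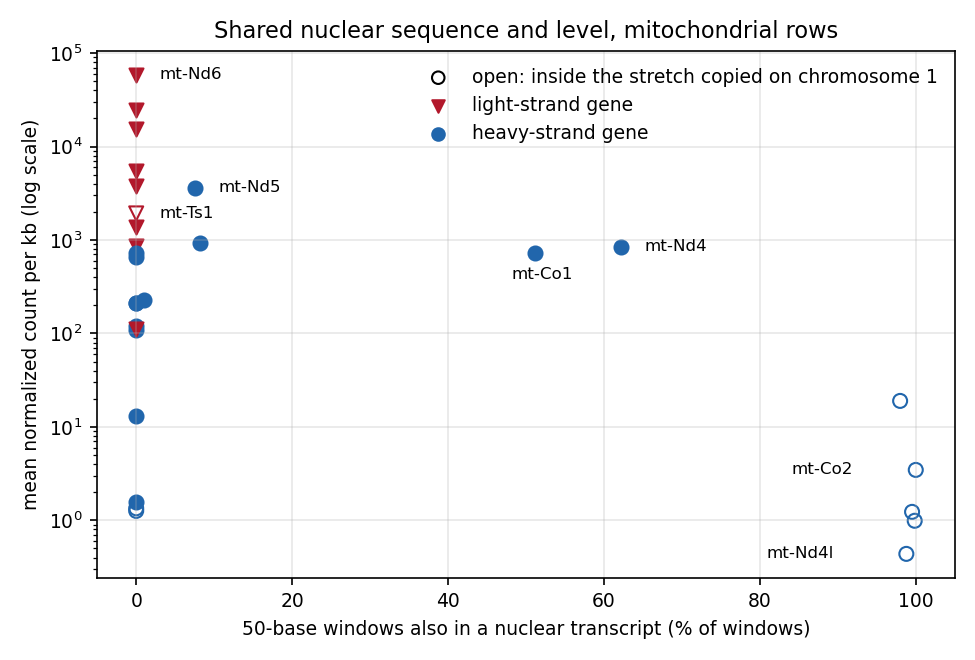
Level per kb (log axis) of the 29 mitochondrial rows against the percent of their 50-base windows also found in a nuclear transcript, with light-strand genes as red triangles, heavy-strand genes as blue circles and open symbols for genes wholly inside the stretch copied on chromosome 1. The 9 light-strand genes sit at 0%, and the 5 heavy-strand genes at 98.0 to 100% have levels of 0.437 to 19.0. At 0%, mt-Tf (1.57, with 0 assignable positions) and mt-Tw (13.0) lie in the same range, and the open symbols there are genes whose copy annotated transcripts cover too little to compare. For mt-Tw, mt-Ta, mt-Tn, mt-Tc and mt-Ty, which lie between matches on chromosome 2, nuclear sequence was not compared either.

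The nuclear genes that make, cut and charge these RNAs were described from a list of 29. Their values here are means unless given per kb. Of these 29 genes, 29 were in the table, 22 at a mean of at least 1 and 6 at a mean of at least 10, with a median of 1.70. Over all rows, 56.8% had a mean of at least 1 and the median was 1.52. In the transcription group, Polrmt, the mitochondrial RNA polymerase, stood at 1.47, Tfam, which packages and activates the mitochondrial genome, at 3.44, and Tfb2m, which opens its promoters, at 0.654. Of the 13 processing and stability genes the median was 9.01. Elac2, the nuclease that cuts tRNA 3′ ends, stood at 3.32, and Prorp, Trmt10c and Hsd17b10, the subunits of mitochondrial RNase P, at 11.8, 4.42 and 9.79. Lrpprc, which stabilises mitochondrial mRNAs with SLIRP, stood at 9.97, and Grsf1, an RNA-binding protein linked to ND6 and light-strand RNA, at 11.4.

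Slirp, with a mean of 558, and Trnt1, which adds the CCA end to tRNAs, with a mean of 208, stood apart from the rest of that group. Per kb they stood at 179.9 and 47.1, against 0.138 (Fastkd5) to 7.55 (Hsd17b10) for the others. Both have exons opposite an exon of a coding gene, Alkbh1 and Snw1 for Slirp and Crbn for Trnt1. Across the list, 7 genes have such an opposite exon, with a median of 3.32, and 22 do not, with a median of 1.59. The part of the opposite genes in the Slirp and Trnt1 rows was not tested.

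The enzymes that charge the light-strand tRNAs had a median of 1.40 over 10 genes. Aars2 for alanine stood at 1.47, Nars2 for asparagine at 1.33, Cars2 for cysteine at 0.852, Yars2 for tyrosine at 2.57, Sars2 for serine at 0.991, Ears2 for glutamate at 1.26 and Pars2 for proline at 0.0575. Glutamine is attached to mt-Tq indirectly, by the GatCAB amidotransferase, whose genes Gatc, Gatb and Qrsl1 stood at 29.5, 14.0 and 2.01. Per kb these 10 genes stood at 0.0186 (Pars2) to 16.4 (Gatc), below each of the tRNA rows they serve, of which the lowest, mt-Tn, stood at 111 per kb. The tRNA genes are shorter than a read, so per kb of gene is not a like measure for both groups. The libraries select mRNAs by their poly(A) tails, and the tRNAs carry none in mature form. Which strand the rows of these nuclear genes count is not known.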

How the data were processed

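RNA from 32 mouse livers was sequenced as single-end 75-base reads after poly(A) selection. Per the methods and processing notes, the authors aligned reads to GRCm38 with HISAT2 (2.1.0.13), counted them per gene with HTSeq and normalized them with DESeq2. The deposited signal used here is the mean normalized count per gene over all libraries, a single value without spread that the table repeats in 6 identical columns. Its other 30 columns hold the authors' fold changes, standard errors, test statistics and p-values for 6 comparisons, and were not used. Values per library were not analysed here, so the total count of each library, and the precision that it gives, is unknown.

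Shares and ranks were computed over all 21880 rows, whose means sum to 900450. Gene positions, lengths and sequences came from the GENCODE annotation and transcripts of GRCm38, in which 29 of the 29 mitochondrial rows matched by gene identifier. Its release may differ from that used for counting. Levels per kb are the mean divided by the annotated length and multiplied by 1000. Assignable positions are the starts of 75-base windows that touch a gene and no other on its strand. Shared windows are 50-base windows found in a nuclear transcript on either strand. The window functions were tested on simulated sequences.

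Genes named are the members, the gene opposite or next to each, the heavy-strand mitochondrial genes, 29 nuclear genes for transcription, processing and charging of mitochondrial RNA, and 6 hepatocyte markers. Ccdc152, Selenop and the pseudogenes were named after their values or matches were seen. Members and lists were chosen with earlier results of these data known. Tables were read with pandas 2.3.3, computed with numpy 2.4.6 under Python 3.11.15, and plotted by matplotlib 3.10.9. Alternatives were another length, other rows in the share, the ranking and the strand comparison, and leaving out mt-Nd6.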

Additional observations from a re-analysis of the deposited data

How the results depend on the processing

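The values rest on 1 mean per gene, with no spread, so each alternative is a second description and not a test. The share of the light-strand rows, 3.79% of all summed means, was 74.1% of the mitochondrial rows and 0.417% without mt-Nd6. The ratio of the strand medians per kb, 32.7, was 31.5 per base under no other gene and 13.8 per assignable position. It was 16.4 without the heavy-strand rows wholly inside the stretch copied on chromosome 1, 20.1 without the rows of either strand wholly inside it, and 17.5 without any heavy-strand row that touches it. The last 3 settings and the share without mt-Nd6 were chosen after seeing the data. Per assignable position, 2 of the 9 light-strand levels were higher and 3 of the 9 ratios to the nearest heavy-strand gene were higher, and 0 of these 9 ratios crossed 1. The ratios of mt-Tq and mt-Tp to mt-Nd5, the highest heavy-strand row, were above 1 per kb and below 1 per position. The ratio of mt-Nd6 to mt-Nd5 stayed at 16.2 per kb and per position, and was 16.5 per base under no other gene. Ranking only the 12419 rows with a mean of at least 1 could not change a rank, since each of the 9 means is above 1. No paired analysis was possible because the values used are 1 mean per gene over all libraries. For the same reason another normalization and test, no filter on low counts, and leaving out each replicate in turn were not run. Depth per library is unknown, so how firmly low rows such as mt-Tn were measured could not be judged.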
